A study of Mus musculus with 8 samples.

Results

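Integrins are pairs of one alpha and one beta chain that anchor cells to matrix, blood vessel walls and other cells. The data describe open chromatin at 9 mouse integrin genes expressed by natural killer (NK) cells and their relatives, Itga1, Itga2, Itga4, Itgae, Itgal, Itgam, Itgb1, Itgb2 and Itgb7. They were picked by name out of 21887 protein-coding genes, and Itga2 stands apart among them because its product, CD49b, was used to sort the cells. The libraries came from splenic NK cells of 4 mice whose heat shock factor 1 (HSF1) has alanine in place of serines 303 and 307 (MUT, replicates 26, 27, 28 and 29) and of 4 mice wild-type for HSF1 (WT, replicates 4, 5, 6 and 7). All mice were at steady state, and each one was a biological replicate. Splenocytes were enriched with DX5 beads, which also bind CD49b, then sorted as CD49b+ CD3e- cells, and 200000 cells per mouse entered the assay for transposase-accessible chromatin (ATAC-seq). No strain, age or sex is given in the sources used here, so any other difference between the mice cannot be told apart from the genotype.

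A beta chain and its alpha partner reach the cell surface together. The beta 1 chain (Itgb1, CD29) pairs with CD49a (Itga1) and CD49b (Itga2), which bind collagen, and with CD49d (Itga4), which binds VCAM-1 and fibronectin. The beta 2 chain (Itgb2, CD18) pairs with CD11a (Itgal) to form LFA-1, the ICAM receptor of the cytotoxic synapse, and with CD11b (Itgam) to form Mac-1, whose level rises as mouse NK cells mature. The beta 7 chain (Itgb7) pairs with CD49d for homing to gut and with CD103 (Itgae) for binding E-cadherin. HSF1 switches on chaperone genes under heat and other stress, and the serines replaced in MUT mice are phosphorylation sites linked to its repression.

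Sequences of 5 gene starts are shown here because peaks overlapped them in 8 of 8 libraries. Each is a RefSeq promoter window on GRCm38.p6, from 250 bases before to 50 bases after the annotated start, read 5′ to 3′ on the strand of the gene. Capitals mark the letters of 8 motifs searched on both strands, namely AGGAAG (ETS factors), TGTGGT (RUNX), GGGCGG (SP and KLF factors), GGTGTGA (T-box factors), TGACGT (cyclic AMP element), TGANTCA (AP-1), GAANNTTC (a pair of HSF1 units) and CCAAT (NF-Y). The windows are chr13:114932051-114932350 on the minus strand for Itga2, chr2:79255176-79255475 on the plus strand for Itga4, chr7:128062390-128062689 on the plus strand for Itgam, chr8:128685404-128685703 on the plus strand for Itgb1 and chr15:102231886-102232185 on the minus strand for Itgb7.
Itga2: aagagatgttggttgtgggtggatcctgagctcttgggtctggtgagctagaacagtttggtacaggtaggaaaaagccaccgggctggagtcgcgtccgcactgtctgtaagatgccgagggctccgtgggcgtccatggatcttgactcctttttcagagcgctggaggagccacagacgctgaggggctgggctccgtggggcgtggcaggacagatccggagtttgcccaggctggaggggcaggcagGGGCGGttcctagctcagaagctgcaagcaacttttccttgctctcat
Itga4: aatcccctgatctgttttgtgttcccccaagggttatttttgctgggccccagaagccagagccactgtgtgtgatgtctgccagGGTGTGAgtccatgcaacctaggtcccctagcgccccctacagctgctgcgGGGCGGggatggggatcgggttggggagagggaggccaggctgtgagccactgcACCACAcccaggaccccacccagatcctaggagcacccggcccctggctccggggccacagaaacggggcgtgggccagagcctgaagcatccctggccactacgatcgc
Itgam: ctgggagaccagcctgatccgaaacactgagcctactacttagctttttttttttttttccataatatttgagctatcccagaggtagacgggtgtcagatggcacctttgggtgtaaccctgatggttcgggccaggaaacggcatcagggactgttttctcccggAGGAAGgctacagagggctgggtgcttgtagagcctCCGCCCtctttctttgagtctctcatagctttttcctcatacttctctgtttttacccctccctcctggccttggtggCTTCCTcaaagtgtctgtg
Itgb1: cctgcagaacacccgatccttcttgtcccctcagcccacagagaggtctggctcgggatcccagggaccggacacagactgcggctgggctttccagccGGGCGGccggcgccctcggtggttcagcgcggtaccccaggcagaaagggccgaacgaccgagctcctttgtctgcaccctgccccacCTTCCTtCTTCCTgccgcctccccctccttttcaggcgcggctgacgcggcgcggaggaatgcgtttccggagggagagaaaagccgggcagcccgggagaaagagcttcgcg
Itgb7: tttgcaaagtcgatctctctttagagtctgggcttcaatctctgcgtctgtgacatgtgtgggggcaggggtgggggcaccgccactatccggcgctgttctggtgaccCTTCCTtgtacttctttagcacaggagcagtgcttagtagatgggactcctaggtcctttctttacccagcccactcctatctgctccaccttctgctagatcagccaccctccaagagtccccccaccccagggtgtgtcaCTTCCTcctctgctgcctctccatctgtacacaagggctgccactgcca

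Windows were found for 6 of the 9 genes, the remaining one being that of Itga1. The letters AGGAAG stood in 4 of the 6 windows (Itga1, Itgam, Itgb1 and Itgb7), against 35.4% of all 32851 promoter windows. GGGCGG also stood in 4 (Itga2, Itga4, Itgam and Itgb1), against 35.7% of all windows. Itga4 alone of the 6 held GGTGTGA, 165 bases before its start, and TGTGGT, 60 bases before it, which 3.98% and 16.8% of all windows held. None of the 6 windows held the HSF1 pair, which 7.86% of all windows held, or the cyclic AMP element, which 7.51% held. The AP-1 letters (7.81% of all windows) and the NF-Y letters (37.4%) were not in them either. None of the marked motifs overlapped another in these 6 windows, and a match describes letters only.

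The values come from 1 peak list per library. The MUT lists held 44333 to 49627 peaks and the WT lists 42695 to 46102 peaks, each at least 200 bp wide. Read depth is unknown, so a peak absent from a list may be closed chromatin or a weak one below the caller's cutoff. Each peak was assigned by its midpoint to the closest gene start or end, up to 50 kb away, and linked peak lengths were summed per gene and library (linked bp). Linked bp was not adjusted for the length of a gene or the distance to its neighbours. Overlapping peaks of all libraries were merged into regions, and a region called in at least 2 libraries is a consensus region. Strength is given as the percentile of the authors' unnamed score within its own list, where 100 is the strongest peak, and it only ranks peaks within a list. Distance alone cannot tell which gene is regulated by a region, and the gene table used gives no exons, introns or UTRs.

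Marker genes of NK cells had linked peaks, and so did some markers of each other cell type listed. All 14 NK marker genes had linked peaks, with 43618 to 48274 bp summed per MUT library and 45527 to 48042 bp per WT library. Of the 14, 2 had a log2 difference above 0, Ncr1 among them, and the median was -0.052. An unadjusted p under 0.05 by limma was reached by 5 of the 14, against 11.2% of all tested genes. Ncr1, which encodes the NK receptor NKp46, had 3448 ± 377 bp in MUT and 2855 ± 198 bp in WT, and Eomes, an NK lineage factor, had 3606 ± 351 bp in MUT and 3766 ± 177 bp in WT (SD, n = 4 each). Among 12 B cell markers 9 were tested, with 3982 to 6103 bp per MUT library and 3910 to 4648 bp per WT library. None of the 9 passed by limma (lowest adjusted p = 0.181), with 4 at an unadjusted p under 0.05, which 11.2% of all tested genes reached. Of these 9 B cell markers 5 had a log2 difference above 0, and their median was 0.37. Among 12 T cell markers 9 were tested, with 19799 to 26419 bp in MUT and 19129 to 21021 bp in WT. The CD3 gene Cd3e had peaks in 8 of 8 libraries, and Cd4, Cd8a and Cd8b1 had none. Basophils also carry CD49b, and 9 of their 10 markers with mast cells had 12081 to 13762 bp per MUT library and 11331 to 12764 bp per WT library. The basophil protease gene Mcpt8 had 306, 402, 365 and 377 bp in MUT and 0, 326, 0 and 314 bp in WT (limma, adjusted p = 0.470). Of the 9 tested genes of that list 5 had a log2 difference above 0, with a median of 0.04, and 0 passed. Ms4a2 and Cpa3 of the same list had peaks in 8 of 8 libraries. Of 14 myeloid and dendritic markers 8 were tested, with 3022 to 5007 bp in MUT and 3214 to 3960 bp in WT. Csf1r had peaks in 8 of 8 libraries, and Lyz2, Ly6g, S100a8, Mpo, Elane and Csf3r had none. Of 12 platelet and erythroid markers 6 were tested, with 3804 to 4732 bp in MUT and 3916 to 4835 bp in WT. Pf4 and Gp1bb had peaks in 8 of 8 libraries, and Ppbp, Gp9, Hba-a1, Hbb-bs and Gata1 had none. Of 10 ILC1 markers 8 were tested, with 14739 to 18365 bp in MUT and 15195 to 16160 bp in WT, and 0 of any of these lists other than the NK one passed. The part of other cells in the integrin values was not tested, and a change in cell make-up cannot be told apart from a change in accessibility per cell.

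By mean linked bp, 8 of the 9 integrin genes stood between the 78.2nd and the 99.6th percentile of tested genes, and Itgae at the 31.4th. Together they held 74 regions, of which 71 were consensus regions out of 50044 in all. Of the 71, 60 (84.5%) had a peak in all 8 libraries, against 68.9% of all consensus regions. Their widths were ordinary, with a median of 465 bp against 477 bp over all consensus regions, and so was their strength, with a median score percentile of 45.9 against 43.8. Of the 74 regions, 48 lay inside the gene they were linked to. The 14 regions that were missing from at least 1 library were weak, between percentiles 0.834 and 36.8 on average. Peaks linked to the 9 genes were 64, 73, 64 and 65 in MUT libraries and 64, 68, 65 and 61 in WT libraries.

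**Figure D1:**
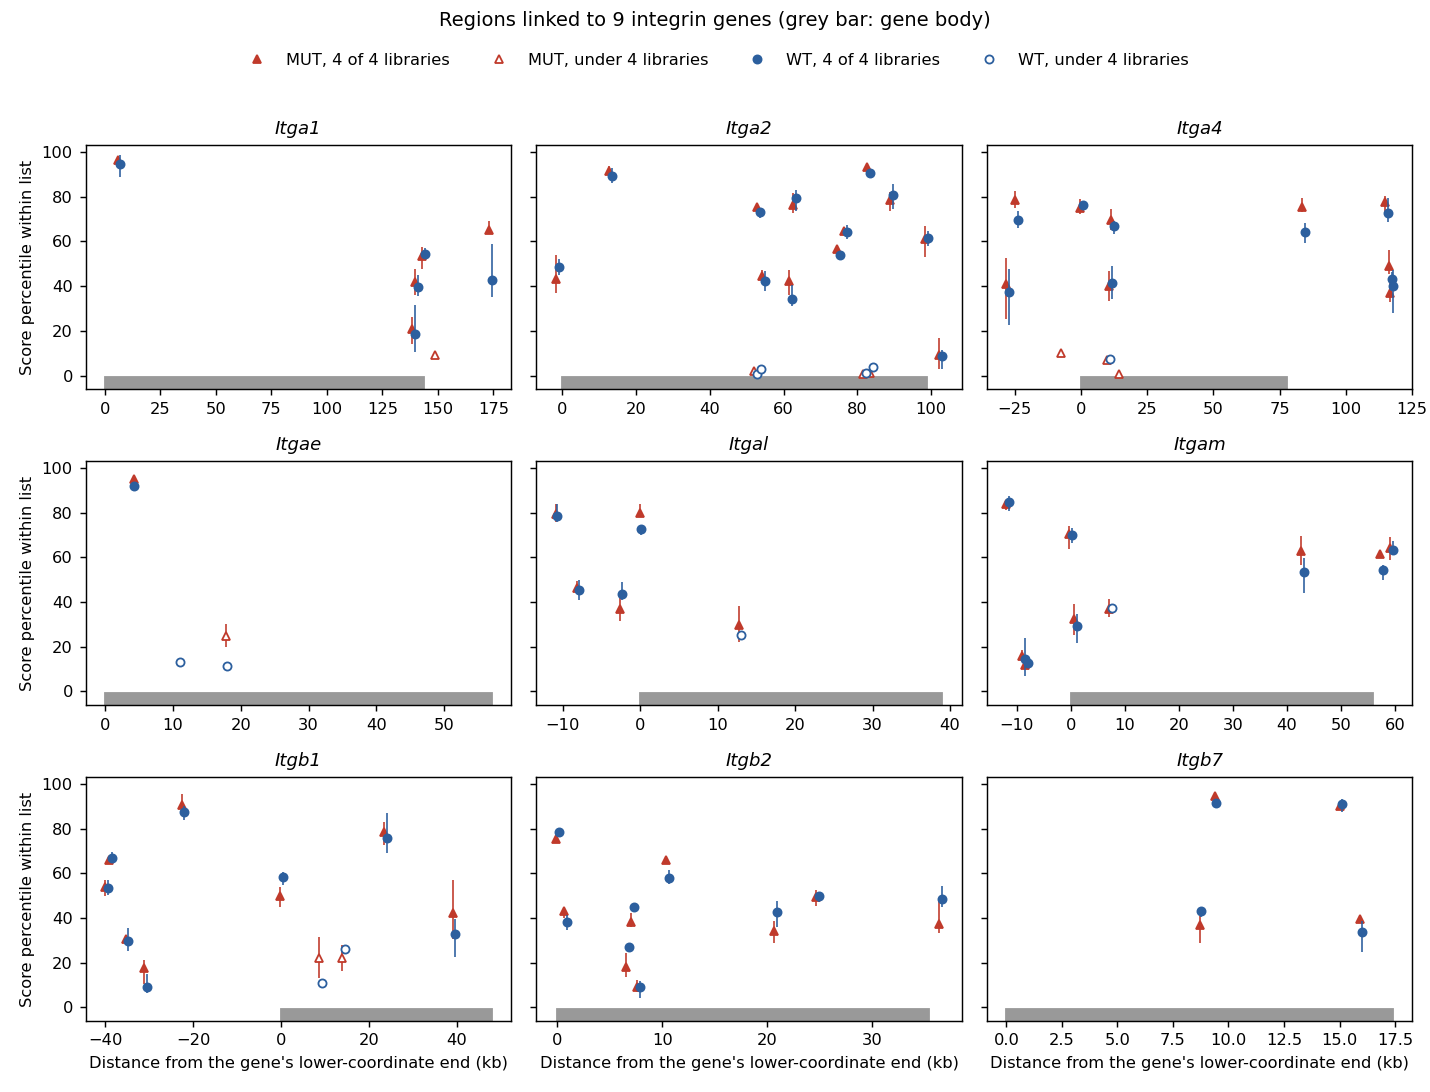
Each panel plots the regions linked to 1 integrin gene by distance from the gene's lower-coordinate end (x axis, kb) and by score percentile within the list (y axis). Red triangles are means over MUT libraries and blue circles over WT libraries, slightly offset, with bars from the lowest to the highest library; open symbols mark regions called in under 4 libraries of that genotype, and the grey bar is the gene body. Itga2 has 16 regions and Itgae 3, and the open symbols all sit at percentile 37.4 or lower.

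None of the 9 genes passed the test for a difference between the genotypes in linked bp. In the fit over 14257 genes, 0 of the 9 passed an adjusted p of 0.05, where 0.673% of all tested genes did, 0.442% higher and 0.231% lower in MUT. None of the 9 reached an unadjusted p under 0.05 by limma either (the lowest adjusted p was 0.491, for Itgam), while 11.2% of all tested genes did. Linked bp of every MUT library lay above every WT library at 0 of the 9 genes, against 4.23% of tested genes, and below at 0, against 1.52%. All 9 passed the filter of a linked peak in at least 2 libraries. Of the 9, 6 had a log2 difference above 0 (Itga1, Itga4, Itgae, Itgal, Itgam and Itgb1), against 42.1% of all genes. The sign turned with the scaling for Itgb2 and Itgb7, which stood above 0 without it. Their median log2 difference was 0.049, against -0.019 over all tested genes. A log2 value here is of linked bp plus 200 after scaling each library to the same total, so it understates changes of genes with few bp.

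**Figure D2:**
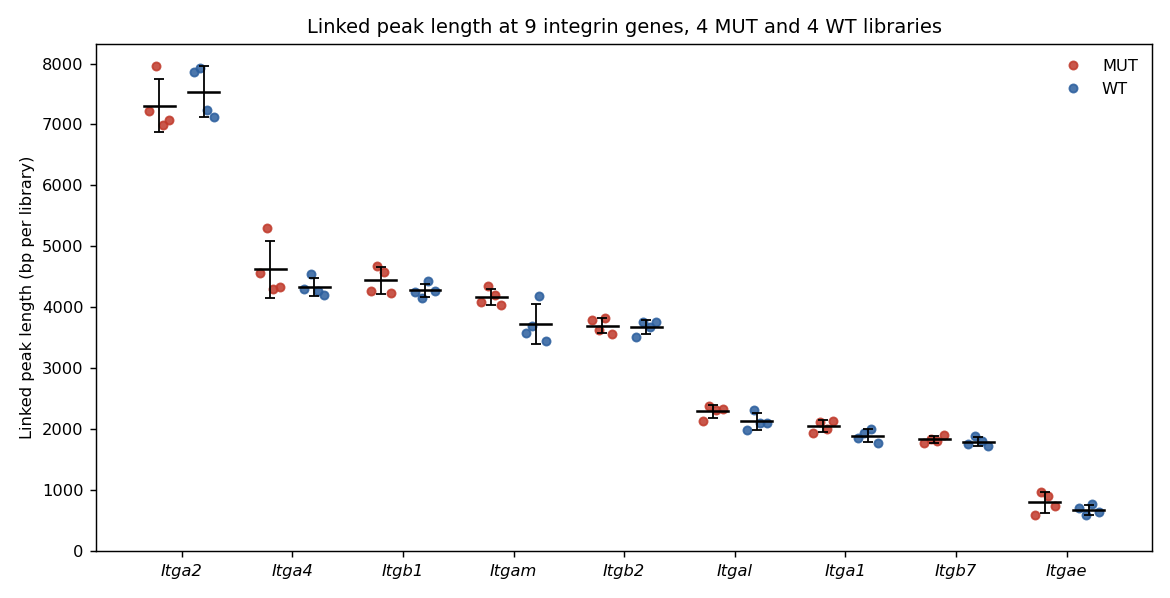
The plot shows linked peak length (y axis, bp per library) at the 9 integrin genes, with 4 MUT libraries in red left of 4 WT libraries in blue. Points are libraries, the wide bar is the mean and the error bar the SD. Itga2 lies at 6984 to 7952 bp in MUT and 7125 to 7926 bp in WT, Itgae lies under 1000 bp, and the genotypes overlap at all 9 genes.

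Itga2, the gene of the sort marker, had the most linked bp of the 9. It spans chr13:114833081-114932100 on the minus strand. Its linked peaks covered 7222, 7952, 6984 and 7077 bp in MUT libraries and 7861, 7926, 7239 and 7125 bp in WT libraries, which put it at the 99.6th percentile of tested genes by mean length. The highest MUT library lay above all WT libraries and the lowest MUT library below all of them, so the genotypes overlapped. The means were 7309 ± 440 bp in MUT and 7538 ± 414 bp in WT (SD, n = 4 each; log2 -0.08, SE 0.0411, limma adjusted p = 0.522). The 95% interval of the difference ran from 0.885-fold to 1.01-fold on the scale of bp plus 200.

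Along the gene, Itga2 had 16 consensus regions, 14 of them inside it and 12 called in 8 of 8 libraries. The region at the start (chr13:114931330-114932462) contains the whole window printed above and was the widest, with 1092, 1122, 1062 and 1113 bp covered in MUT and 1128, 1087, 1086 and 1064 bp in WT. It was not the strongest, standing between percentiles 52.9 and 66.7 in MUT and between 58.0 and 64.7 in WT. A region 16.0 kb into the gene (chr13:114915696-114916517) ranked highest, at 92.2 to 94.6 in MUT lists and 88.4 to 92.6 in WT lists. Its covered length was uneven within each genotype, with 780, 712, 798 and 450 bp in MUT and 819, 740, 426 and 780 bp in WT. Next came a region near the far end of the gene (chr13:114845720-114846529), with mean percentiles of 91.7 in MUT and 89.4 in WT. The 4 regions of Itga2 that were missing from some libraries averaged no more than 3.68 in either genotype. One of them (chr13:114886566-114886788) was called in 2 WT libraries and 0 MUT libraries, while the other 3 were called in both genotypes.

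Itga1 encodes CD49a, known as a marker of tissue-resident NK cells and ILC1, and is the neighbour of Itga2. It spans chr13:114958079-115101964 on the minus strand. Its linked peaks covered 1936, 2123, 2009 and 2128 bp in MUT and 1857, 1942, 2004 and 1763 bp in WT. The MUT libraries tended to the upper side of the shared range, with 3 of them above every WT library. The means were 2049 ± 93.2 bp in MUT and 1892 ± 105 bp in WT (log2 0.07, SE 0.0592, limma adjusted p = 0.717), with an interval of 0.955-fold to 1.15-fold. Its strongest region (chr13:114964257-114964645) lay 6.37 kb from the far end of the gene, at percentiles 94.3 to 98.0 in MUT and 89.0 to 98.6 in WT. The region nearest its start (chr13:115101420-115101839) stood near the middle of the lists, at 47.6 to 57.4 in MUT and 52.5 to 56.9 in WT, and shared 0 bases with the promoter window. Another gene, Pelo, lies inside Itga1, so only 4 of the 8 consensus regions inside Itga1 were linked to it and 3 were linked to Pelo. With every peak in the gene body or within 5 kb of it counted, Itga1 had 3694, 3621, 3527 and 3478 bp in MUT and 3262, 3522, 3408 and 3413 bp in WT (log2 0.04, limma adjusted p = 0.831).

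Itga4 and Itgb1 encode the CD49d and CD29 chains. Itga4 (chr2:79255426-79333114, plus strand) had 4561, 5305, 4296 and 4326 bp in MUT and 4304, 4542, 4262 and 4198 bp in WT. Replicate 27 of MUT, the library with the most peaks, stood above the rest, and the other 3 MUT libraries lay close to the WT ones. The means were 4622 ± 470 bp in MUT and 4326 ± 150 bp in WT (log2 0.05, SE 0.0470, limma adjusted p = 0.756, interval 0.960-fold to 1.11-fold). Its start region (chr2:79255089-79256238) contains the whole window printed above, with the GGTGTGA letters, and covered 1101, 1099, 1139 and 1127 bp in MUT and 1091, 1073, 1091 and 1091 bp in WT. Every MUT library was a little longer there, yet relative to the scaled total the region did not pass (log2 difference near 0). Of its 10 consensus regions 4 lay past its far end, inside the neighbouring gene Cerkl.

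Itgb1 (chr8:128685654-128733579, plus strand) had 4274, 4684, 4573 and 4236 bp in MUT and 4257, 4154, 4428 and 4259 bp in WT. Here 2 MUT libraries stood above and 2 among the WT values. The means were 4442 ± 221 bp in MUT and 4274 ± 113 bp in WT (log2 0.01, SE 0.0368, limma adjusted p = 0.914, interval 0.953-fold to 1.07-fold). Its start region (chr8:128685018-128686471) was the widest of all member regions, at 1111, 1360, 1135 and 1395 bp in MUT and 1114, 1102, 1120 and 1100 bp in WT (limma adjusted p = 0.628). The length split the MUT libraries into a longer and a shorter pair, while the WT libraries were alike. By score this start region ranked lower in MUT lists, at percentiles 44.9 to 54.0, than in WT lists, at 54.9 to 60.7. The strongest region of Itgb1 (chr8:128663080-128663571) lay 22.3 kb before the start, at 86.4 to 95.3 in MUT and 83.6 to 90.2 in WT. Of its 10 regions, 5 lay before the start and 5 inside the gene.

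Itgb2, Itgal and Itgam make up LFA-1 and Mac-1. Itgb2 (chr10:77530329-77565708) had 3782, 3634, 3829 and 3554 bp in MUT and 3503, 3764, 3680 and 3758 bp in WT. The genotypes covered almost the same range, with means of 3700 ± 128 bp in MUT and 3676 ± 122 bp in WT (log2 -0.03, SE 0.0534, limma adjusted p = 0.875, interval 0.901-fold to 1.07-fold). Each of its 9 regions was called in 8 of 8 libraries. Its strongest region (chr10:77529920-77530681) lay at the lower-coordinate end of the gene, at 73.7 to 76.7 in MUT and 77.2 to 79.9 in WT.

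Itgal (chr7:127296139-127335137) had 2129, 2385, 2309 and 2330 bp in MUT and 1990, 2321, 2103 and 2104 bp in WT. Its means were 2288 ± 111 bp in MUT and 2130 ± 138 bp in WT (log2 0.06, SE 0.0593, limma adjusted p = 0.765, interval 0.949-fold to 1.15-fold). In WT, 1 library reached the level of the MUT ones and 3 lay under them. The region at its lower-coordinate end (chr7:127295850-127296541) covered 524, 549, 643 and 661 bp in MUT and 628, 613, 601 and 636 bp in WT. It ranked at 78.2 to 84.0 in MUT lists and 70.2 to 74.5 in WT lists.

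Itgam (chr7:128062640-128118491, plus strand) gave the lowest p of the 9. It had 4080, 4345, 4203 and 4042 bp in MUT and 3575, 3686, 4184 and 3438 bp in WT. All MUT libraries lay above 3 of the WT libraries, and replicate 6 of WT fell within the MUT range. The means were 4168 ± 137 bp in MUT and 3721 ± 325 bp in WT (log2 0.12, SE 0.0577, limma adjusted p = 0.491), and the interval ran from 0.993-fold to 1.19-fold. Its start region (chr7:128062465-128062867) shares 225 bases with the window printed above and covered 397, 392, 351 and 371 bp in MUT and 391, 376, 385 and 386 bp in WT. The strongest region (chr7:128050678-128051385) lay 11.6 kb before the start, at 81.3 to 85.2 in MUT and 80.5 to 87.6 in WT. It covered 702, 706, 696 and 683 bp in MUT and 513, 689, 689 and 539 bp in WT (limma adjusted p = 0.585).

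Itgb7 and Itgae encode the chains of the E-cadherin receptor. Itgb7 (chr15:102215994-102233405, minus strand) had 1779, 1842, 1804 and 1904 bp in MUT and 1750, 1889, 1808 and 1730 bp in WT. These overlapping values gave means of 1832 ± 54.4 bp in MUT and 1794 ± 71.3 bp in WT (log2 -0.008, SE 0.0581, limma adjusted p = 0.978, interval 0.907-fold to 1.09-fold). All 4 of its regions were inside the gene and called in 8 of 8 libraries. A pair was very strong in both genotypes. The region chr15:102225079-102225739 stood at 92.9 to 95.6 in MUT and 89.4 to 93.0 in WT, and the region chr15:102230733-102231385 at 89.0 to 91.7 in MUT and 87.5 to 93.2 in WT. The region over the start used for the window printed above (chr15:102231800-102232130), which shares 245 bases with it, was weaker, at 37.8 to 40.4 in MUT and 24.9 to 38.6 in WT. That start lies inside the gene span given here, so the window and the gene table place the start differently. The midpoint of this region was 1.44 kb from the nearest end of the span, and no region of Itgb7 lay closer.

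Itgae (chr11:73090505-73147449) had the fewest linked bp of the 9. Its linked peaks covered 583, 960, 894 and 743 bp in MUT and 699, 593, 773 and 631 bp in WT. The means were 795 ± 168 bp in MUT and 674 ± 79.2 bp in WT (log2 0.14, SE 0.113, limma adjusted p = 0.689), and the interval was the widest, from 0.923-fold to 1.32-fold. Most of this length was 1 strong region 4.28 kb inside the gene (chr11:73094392-73095177), which covered 583, 633, 659 and 506 bp in MUT and 499, 593, 550 and 631 bp in WT. It stood at percentiles 94.3 to 96.2 in MUT and 91.3 to 92.9 in WT. A weaker region 17.9 kb inside (chr11:73108188-73108546) had 0, 327, 235 and 237 bp in MUT and 200, 0, 0 and 0 bp in WT (limma adjusted p = 0.585). No region had its midpoint within 1 kb of an end of Itgae. The gene Haspin lies inside Itgae, and 5 of the 7 consensus regions inside Itgae were linked to Haspin. With all peaks of the gene body and its flanks counted, Itgae had 2250, 2722, 2639 and 2416 bp in MUT and 2383, 2329, 2478 and 2366 bp in WT (log2 0.03, limma adjusted p = 0.870). Counted that way, Itgae was not the lowest of the 9. Itgal then had 1220, 1324, 1272 and 1342 bp in MUT and 1090, 1277, 1077 and 1132 bp in WT.

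**Figure D3:**
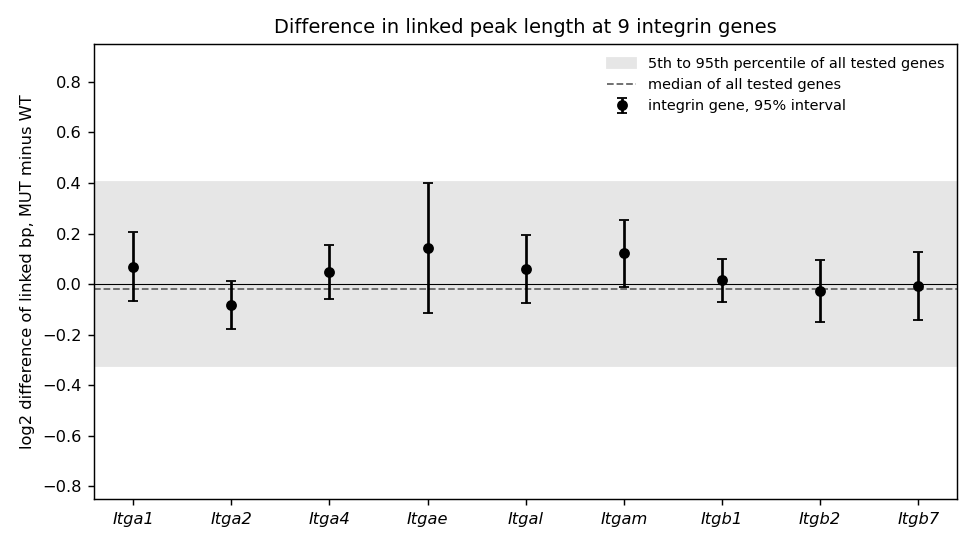
The plot shows the log2 difference of linked bp, MUT minus WT (y axis), for the 9 integrin genes as points with 95% intervals from the limma fit. The grey band spans the 5th to the 95th percentile of all 14257 tested genes (-0.33 to 0.40) and the dashed line is their median of -0.019. All 9 intervals include 0.

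Ordered by mean linked bp in MUT, the genes ran Itga2, Itga4, Itgb1, Itgam, Itgb2, Itgal, Itga1, Itgb7 and Itgae. Itga2 stood clear of the next gene in every library, and so did Itgae, at the bottom, from Itgb7. Itga4 overlapped with Itgb1, and Itgb1 with Itgam, in both genotypes. Itgam and Itgb2, Itgal and Itga1, and Itga1 and Itgb7 overlapped in WT but not in MUT, while Itgb2 and Itgal stood apart in both. The order depends on the linking rule, and Itgae was not at the bottom with all peaks of gene bodies and flanks counted. These are lengths of open chromatin and not levels of the chains.

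At the level of single regions, no integrin region was called in every library of one genotype and in none of the other. Of the 71 consensus regions, 0 were called in 4 of 4 MUT and 0 of 4 WT libraries, against 0.583% of all consensus regions, and 0 showed the reverse, against 0.178%. The smallest p that Fisher's exact test allows for that pattern is 0.0286 before adjustment. In the fit of covered bp per region, 0 of the 71 passed by limma, against 0.915% of all 50044 consensus regions, 0.681% higher and 0.234% lower in MUT. An unadjusted p under 0.05 was reached by 5 of the 71 (7.04%), all longer in MUT, against 10.5% of all regions. Of the 71 regions, 23 (32.4%) had a log2 difference above 0, against 41.4% of all. Covered bp of every MUT library lay above every WT library in 6 regions (8.45%), against 4.19% of all consensus regions, and below in 0, against 1.73%.

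A pair of regions was called in 4 of 4 MUT and at most 1 WT library, as 1.49% of all consensus regions were. In both, 1 WT library held a peak. The reverse pattern, 4 of 4 WT and at most 1 MUT library, was seen in 0 of the 71, against 0.629% of all. The first lay 7.43 kb inside Itgam (chr7:128069860-128070280), with 308, 353, 261 and 384 bp in MUT and 0, 0, 245 and 0 bp in WT. It had the lowest p of the 71 (log2 1.08, SE 0.273, limma adjusted p = 0.217, n = 4 each). Without WT replicate 6, the library with the peak, it passed (log2 1.38, limma adjusted p = 0.00606). That fit drops the only WT peak, so no conclusion is drawn from it. With any other library left out the region did not pass (limma adjusted p between 0.308 and 0.416). The second lay 12.9 kb inside Itgal (chr7:127308910-127309180), with 209, 265, 214 and 209 bp in MUT and 0, 209, 0 and 0 bp in WT (log2 0.81, SE 0.248, limma adjusted p = 0.316). It passed without WT replicate 5 (log2 1.07, limma adjusted p = 0.0236), again the only WT library with a peak. It did not pass with any other library left out (limma adjusted p between 0.390 and 0.518). Both regions were modest where called, at percentiles 33.4 to 41.3 in MUT and 37.4 in WT for Itgam, and 22.1 to 38.1 in MUT and 25.1 in WT for Itgal. Fisher's exact test on the calls gave an unadjusted p of 0.143 for each.

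The other 3 regions with an unadjusted p under 0.05 were called in all 8 libraries and were singled out after their values were seen. Inside Cerkl and 38.9 kb past the end of Itga4, the region chr2:79371781-79372325 covered 508, 525, 486 and 484 bp in MUT and 352, 380, 366 and 464 bp in WT (log2 0.22, SE 0.0698, limma adjusted p = 0.339). Every MUT library was above every WT library, and without WT replicate 7 the region passed (log2 0.29, limma adjusted p = 0.0322). Replicate 7 held the highest WT value, and with any other library left out the region did not pass (limma adjusted p between 0.409 and 0.525). In the body of Itga2, 37.2 kb from its start, the region chr13:114894678-114895107 covered 408, 388, 391 and 421 bp in MUT and 328, 297, 367 and 253 bp in WT (log2 0.21, SE 0.0787, limma adjusted p = 0.359). Before the start of Itga1, at 29.6 kb, the region chr13:115131343-115131728 covered 364, 367, 369 and 365 bp in MUT and 294, 277, 351 and 255 bp in WT (log2 0.17, SE 0.0682, limma adjusted p = 0.406). The MUT libraries were nearly equal at that region and the WT libraries spread below them. Its score percentiles were 63.9, 63.9, 68.9 and 63.1 in MUT lists and 38.7, 35.3, 58.7 and 38.1 in WT lists.

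**Figure D4:**
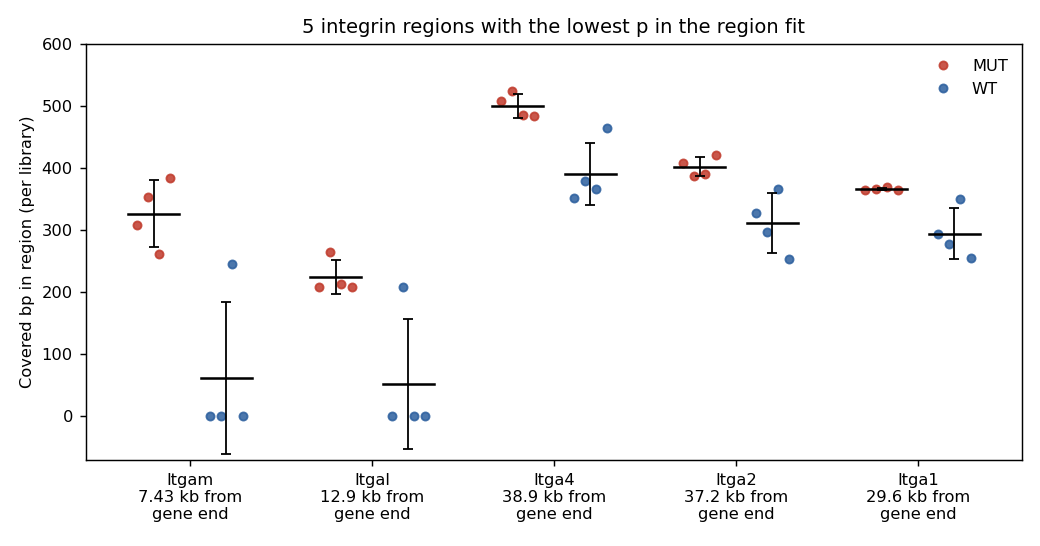
The plot shows covered bp per library (y axis) in the 5 integrin regions with an unadjusted p under 0.05, named by gene and by distance from the nearest gene end. MUT libraries are red and left of WT libraries in blue, with the mean as a wide bar and the SD as an error bar. In the Itgam and Itgal regions 3 of the 4 WT libraries sit at 0, and none of the 5 regions passed the adjustment over all regions.

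In a list of 18 further integrin and integrin-like genes, 15 were tested and 0 passed. Itga11, Itgb6 and the integrin-like gene Itgbl1 had no linked peak in any library. The median log2 difference of the 15 was -0.044, and the lowest adjusted p was 0.283, for Itgb8 (600 ± 147 bp in MUT and 814 ± 76.1 bp in WT), the chain of a receptor that activates TGF-beta. It was 1 of 5 with an unadjusted p under 0.05, against 11.2% of all tested genes. The others were Itgb3 (3404 ± 608 bp in MUT and 2825 ± 107 bp in WT, the beta chain of the platelet fibrinogen receptor), Itgb5 (1590 ± 291 bp in MUT and 1212 ± 235 bp in WT), Itga5 (1555 ± 144 bp in MUT and 1740 ± 131 bp in WT, the fibronectin receptor chain) and Itga10 (78.8 ± 158 bp in MUT and 265 ± 50.3 bp in WT), with adjusted p-values by limma between 0.321 and 0.439 (SD, n = 4 each). Itga6, which pairs with the beta 1 chain in laminin receptors, was open in both genotypes at 4083 ± 367 bp in MUT and 4091 ± 60.5 bp in WT. The neighbours of Itgam on chromosome 7 were Itgax (2988 ± 208 bp in MUT and 3040 ± 350 bp in WT) and Itgad (1781 ± 181 bp in MUT and 1598 ± 182 bp in WT). The remaining subunits with linked peaks, Itga2b, Itga3, Itga7, Itga8, Itga9, Itgav and Itgb4, had adjusted p-values of 0.557 or more by limma, and Itga7 had peaks in 2 MUT libraries and was listed at 0 in WT.

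Genes that switch integrins on and couple them to the cytoskeleton, such as Tln1 (talin), Fermt3 (kindlin-3) and Rap1b, were measured as a list of 34. Of these, 31 were tested and 0 passed by limma (lowest adjusted p = 0.159). An unadjusted p under 0.05 was reached by 6 of the 31, against 11.2% of all tested genes. Their median log2 difference was -0.021, near the -0.019 of all tested genes, and their summed linked length was 91707 to 104176 bp per MUT library and 93278 to 98411 bp per WT library. Of the NK markers 1 of 14 passed, the NK1.1 gene Klrb1c, with 5568, 5471, 5323 and 5078 bp in MUT and 6486, 6491, 6453 and 5959 bp in WT (log2 -0.27, SE 0.0407, limma adjusted p = 0.0313). Its call was lost when any library other than MUT replicate 26 was left out (adjusted p up to 0.0929), while the log2 difference stayed between -0.30 and -0.25 over the 8 fits with 1 library left out. It was also lost without scaling (log2 -0.24, adjusted p = 0.0743), at 10 kb (-0.19) and with gene bodies (-0.19), and its sign turned with the upper 50% of each list (log2 0.55).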

How the data were processed

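The authors deposited 1 peak list per sample. Trimmomatic, Bowtie2 2.3.4.1, DESeq2, DiffBind 3.0.12 and the mm10 (GRCm38) build are named, without roles, per the submitters' processing notes. Which caller and threshold made the peaks, and whether reads were shifted for the enzyme's offset, is not given in the sources used here. Deposited lists from the authors hold positions and an unnamed positive score per peak, and no read counts, so no count model was run. The score was used only to rank and filter peaks within a list.

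Genes came from a RefSeq table of GRCm38.p6 (21887 protein-coding genes). Linked bp per gene and covered bp per consensus region were scaled to the median library and tested with limma 3.58.1 (R 4.3.3, moderated test with trend, two-sided) on log2(bp + 200), with Benjamini-Hochberg adjustment over all genes or all regions and a threshold of 0.05. Regions merged peaks that overlapped by at least 1 bp. The code, run with Python 3.11.15, was tested on simulated data. Printed bp are unscaled. Alternatives were other pseudocounts, linking rules, filters, scaling, peak subsets and leaving out each library. The 9 genes, the lists (170 genes, of which 169 matched the table) and the tests were chosen with earlier results of these data known. The naming rule took all 9 genes, other integrin subunits with a linked peak, defining markers, list genes past the threshold, and regions at gene starts, near one genotype only or strongest per gene. One defining marker is not reported here. Other named genes and regions were chosen after their values were seen.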

Additional observations from a re-analysis of the deposited data

Results flagged for a closer look

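In 64 groups of 4 libraries, 1 library stood apart in 5. A chance rate of about 1 in 20 holds for values without ties in groups not picked by their values, so the count cannot be set against it. The WT groups of chr7:127308910-127309180 and chr7:128069860-128070280 were named because at most 1 WT library had a peak there, which fixes their flags. At the start region of Itga4 (chr2:79255089-79256238) WT replicate 5 covered 1073 bp and the other 3 WT libraries 1091 bp each. In the region inside Itgal (chr7:127308910-127309180) MUT replicate 27 covered 265 bp against 209 to 214 bp in the other MUT libraries, and WT replicate 5 covered 209 bp against 0 bp in the other WT libraries. Near the start of Itgam (chr7:128063406-128063758) WT replicate 6 covered 301 bp against 257 to 264 bp in the other WT libraries. In the region inside Itgam (chr7:128069860-128070280) WT replicate 6 covered 245 bp against 0 bp in the other WT libraries. The same library, WT replicate 6, had the highest linked bp of the WT libraries at Itgam as a whole.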

How the results depend on the processing

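No integrin gene passed under any of the 17 alternatives to the gene fit, with the lowest adjusted p at 0.119 (Itgam without WT replicate 6). Signs turned at genes near 0: Itgal at 10 kb (log2 -0.031) and with the upper 50% of each list (-0.045), Itgb1 with the upper 50% (-0.43), Itgb2 without scaling (0.0087), and Itgb7 at 10 kb (0.0089), without scaling (0.028), with equal numbers of peaks (0.016) and with the upper 50% (0.058). With 1 library left out Itgb1 ran from -0.0076 to 0.031, Itgb2 from -0.057 to 0.015 and Itgb7 from -0.058 to 0.024. Klrb1c stood at 0.55 with the upper 50%. Genes past the threshold numbered 96, or 41 at 10 kb and 22 to 79 with 1 library left out. Regions past it numbered 458, or 297 with the upper 50%, 30 among regions in all 8 libraries and 451 to 772 with 1 library left out. Integrin regions past it numbered 0, and 0 to 1 with 1 library left out. The same counts held for integrin regions called in every library of one genotype and in none of the other. The causes were not tested. No paired analysis was possible because the MUT and WT replicate numbers share none. Read depth is unknown, and with 4 libraries per genotype small differences cannot be seen.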

Other observations

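Of 26 genes that encode integrin ligands 19 were tested, and 7 had no linked peak in any library, among them Vcam1, Fn1 and Vtn. None passed by limma (lowest adjusted p = 0.252), with 3 at an unadjusted p under 0.05, which 11.2% of all tested genes reached. Their summed linked length was 15133 to 18532 bp per MUT library and 16061 to 17977 bp per WT library. Across the 8 libraries, the genes whose scaled linked length followed that of Itga2 most closely were Duoxa2 (Pearson r = 0.94), Mfhas1 (r = 0.93) and Tnfaip8 (r = 0.92), picked from all tested genes as a description. The 8 points are whole libraries and share their peak thresholds and list lengths.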
